A study of Mus musculus with 2 samples.

Results

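Fibrinogen and coagulation genes were described here as 10 genes named by symbol, Fga, Fgb, Fgg, F2, F5, F7, F9, F10, Serpinc1 and Plg. They were found by their Ensembl identifiers among 43346 Ensembl genes, and all 10 were present. The rule that finds them uses no measured value. The data came from 1 group, liver of healthy embryos of the mouse strain B6NCrl at embryonic day 11.5, males and females pooled, with no transgene and no treatment named in the labels. The group had 2 biological replicates with 1 library each. The label of replicate 1 names 109 embryos, and that of replicate 2 says only that embryos were pooled. The labels call the assay single-cell RNA-seq, but the source was tissue, and each library was made with a SmartSeq protocol from an RNA amount of 1 cell-equivalent. With 1 group there was no contrast between conditions and no p-value, and n was 2 for every mean. In such bulk samples, fewer cells of a type and less RNA per cell cannot be told apart.

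Blood clots when the protease thrombin, released from its precursor prothrombin, cuts fibrinogen so that it polymerises into fibrin. Most proteins of this cascade are secreted by hepatocytes, and several of its zymogens need vitamin K dependent carboxylation to work. Antithrombin blocks thrombin and factor Xa, and plasmin, made from plasminogen, dissolves fibrin. At this stage the liver consists of hepatoblasts, the precursors of hepatocytes, among large numbers of forming blood cells.

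The expected counts, estimated reads, summed to 33289699 for replicate 1 and to 32607453 for replicate 2. The labelled tissue was checked by its markers, with 9 of 10 hepatoblast markers and 7 of 7 erythroid markers reaching a TPM of 1 in both libraries. TPM is the expected count of a gene divided by its length and scaled so that every library has the same sum. Summed hepatoblast marker TPM was 12922 in replicate 1 and 11462 in replicate 2, led by Afp, the alpha-fetoprotein gene, while Hnf4a, a liver transcription factor, had reads in replicate 1 (34.8 TPM) and none in replicate 2. Megakaryocyte and platelet markers reached TPM 1 in both libraries in 4 of 8 cases, led by Pf4, with summed TPM of 1026 and 1215. The counts were 5 of 8 for endothelial markers (led by Lyve1, summed TPM 112 and 145), 4 of 8 for macrophage markers (led by Lyz2, 340 and 145), and 6 of 7 for mesenchymal markers (led by Col3a1, 249.9 and 503). Heart muscle markers passed in 2 of 5 cases and summed to 50.2 TPM in replicate 1 and 235 in replicate 2, with Myl7 and Myl2 at 0 in replicate 1. Erythroid markers, led by Hbb-y, summed to 24700 and 23459 TPM.

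Of the 10 genes, 7 were detected in both libraries at a TPM of at least 1, a share to be read against 15% of all Ensembl genes and 27.3% of protein-coding genes. These were the fibrinogen genes Fga, Fgb and Fgg, the zymogen genes F2, F10 and Plg, and the antithrombin gene Serpinc1. F7 reached TPM 1 in replicate 2 only, and F5 and F9 had no read in either library. Summed, the 10 genes were 0.0717% of TPM for replicate 1 and 0.120% for replicate 2, a mean of 0.0961% ± 0.0344 (SD, n = 2). As a percent of the reads of Ensembl genes the mean was 0.161%. By mean TPM as deposited the order was Serpinc1 (293 ± 144), Fgg (163 ± 55.1), Fga (159 ± 24.5), F2 (116 ± 141), Plg (89.5 ± 34.9), Fgb (82.1 ± 5.47), F10 (56.0 ± 1.51) and F7 (0.515 ± 0.728). Serpinc1 lay above Fgg in both libraries as deposited. From Fgg down to Fgb each gene changed order with its neighbour between the libraries, so the order of neighbours was not resolved. Fgb lay above F10, and F10 above F7, in both libraries.

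**Figure D1:**
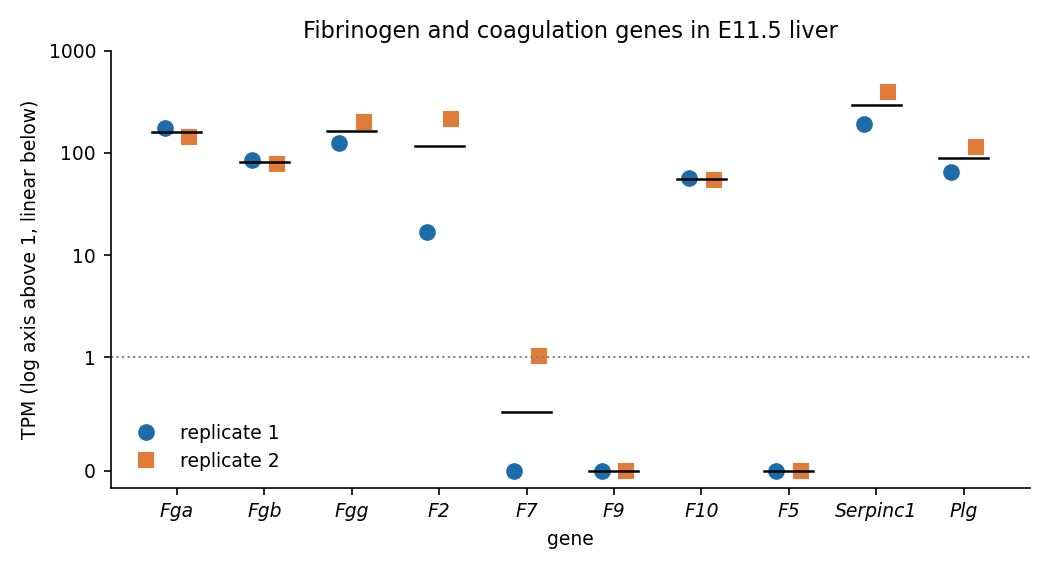
TPM of each gene in replicate 1 (circles) and replicate 2 (squares), on an axis that is logarithmic above 1 and linear below it, with a bar at the mean of the 2 libraries and a dotted line at TPM 1. Fga, Fgb and F10 have nearly the same value in both libraries, F2 is at 16.7 in replicate 1 and 216 in replicate 2, and F5 and F9 lie at 0 in both.

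Fga, Fgb and Fgg encode the alpha, beta and gamma chains, which assemble in equal numbers into the fibrinogen molecule. Fga had 177 TPM (11479 reads) in replicate 1 and 142 TPM (8836 reads) in replicate 2. Fgb had 86.0 TPM (9430 reads) in replicate 1 and 78.2 TPM (8530 reads) in replicate 2. Fgg had 124 TPM (5871 reads) in replicate 1 and 202 TPM (9634 reads) in replicate 2. Fga and Fgb were thus slightly higher in replicate 1 and Fgg was higher in replicate 2. Fgb was the lowest of the chain genes per length in both libraries, on its only annotated length of 3810 bases. In reads, Fgb lay above Fgg in replicate 1. The TPM ratio of Fga to Fgb was 2.06 in replicate 1 and 1.82 in replicate 2, or 1.94 ± 0.170 (SD, n = 2). The ratio of Fga to Fgg was 1.42 in replicate 1 and 0.702 in replicate 2, so the leading chain gene was not the same in the libraries. The summed fibrinogen TPM made up 0.0387% of the library in replicate 1 and 0.0423% in replicate 2.

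The chain genes lie side by side on chromosome 3, in mm10 at chr3:83007724-83015049 (Fgg, plus strand), chr3:83026076-83033627 (Fga, plus strand) and chr3:83040141-83049863 (Fgb, minus strand). Gaps of 11026 bases separate Fgg from Fga and 6513 bases separate Fga from Fgb. On the side of Fgg, Lrat, a retinol acyltransferase gene, had no read in either library. On the other side Plrg1, which encodes a splicing factor, had 59.6 TPM in replicate 1 and 37.8 TPM in replicate 2. The noncoding gene Gm30097 runs antisense to Fgg over 765 bases and had 0.10 TPM in both libraries. Whether counting used the strand is not stated, so reads in this and the other antisense overlaps named here cannot be told apart.

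The 250 bases before the RefSeq start of each chain gene are shown because the genes are neighbours that encode the chains of the same protein. The sequences are from RefSeq (GRCm38.p6), 5′ to 3′ on the gene's strand, at chr3:83025903-83026152 for Fga, chr3:83049864-83050113 for Fgb and chr3:83007474-83007723 for Fgg. Capitals mark matches to motifs of the liver factors HNF1 (GTTAAT) and C/EBP (TTGCNNAA), searched on both strands.
Fga: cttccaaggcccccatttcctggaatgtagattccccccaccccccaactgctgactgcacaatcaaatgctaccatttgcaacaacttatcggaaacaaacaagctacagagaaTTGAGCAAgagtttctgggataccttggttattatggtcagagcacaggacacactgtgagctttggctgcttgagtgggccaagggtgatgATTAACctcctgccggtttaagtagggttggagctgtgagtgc
Fgb: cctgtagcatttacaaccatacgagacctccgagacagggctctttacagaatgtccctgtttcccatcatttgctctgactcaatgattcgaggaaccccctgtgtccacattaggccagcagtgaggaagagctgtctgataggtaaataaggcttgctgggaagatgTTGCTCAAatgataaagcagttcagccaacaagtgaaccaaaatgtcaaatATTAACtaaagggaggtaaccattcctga
Fgg: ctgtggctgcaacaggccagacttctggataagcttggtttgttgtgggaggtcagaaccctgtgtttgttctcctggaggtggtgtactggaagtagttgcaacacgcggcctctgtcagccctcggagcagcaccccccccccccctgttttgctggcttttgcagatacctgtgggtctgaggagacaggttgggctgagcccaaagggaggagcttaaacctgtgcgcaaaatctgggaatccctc
The HNF1 letters ended 38 bases before the start in Fga and 24 bases before it in Fgb, while neither motif was found in the Fgg window. In windows that also took in the 50 bases after the start, the HNF1 letters were found in 3 of the 9 genes with a promoter in the table (Fga, Fgb and F2) and in 7.10% of all 32851 promoters. The C/EBP letters were found in 4 of 9 (Fga, Fgb, F9 and Serpinc1) and in 10.8% of all promoters. TATAAA was in none of the 9 and in 13.6% of all promoters. Plg had no entry. GENCODE M21 places the start of Fga-201 upstream of the RefSeq start, at 83026076, so the distances hold for RefSeq only. These matches are letters in a window, and no binding was measured.

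The transcripts assigned to Fgg differed between the libraries. The transcript Fgg-201 splices into a further exon, whereas Fgg-202 reads on past the splice site and ends there, the form that in humans gives the gamma prime chain. Fgg-202 took 0.38% of Fgg abundance in replicate 1 and 52.6% in replicate 2. In TPM it was 0.47 in replicate 1, with deposited credibility bounds of 0.133 to 1.02, and 106 in replicate 2, with bounds of 99.5 to 109. Fgg-201 was nearer alike, at 124 TPM in replicate 1 and 96.0 TPM in replicate 2. Which level these bounds have is not stated by the headers or labels. Each pair of bounds comes from 1 library and does not cover the spread between replicates. The ends of the coding sequence, shown because the transcripts differ only there in their coding part, start with 20 shared bases in lower case and go on in capitals with the bases of each form up to and including the stop codon (GENCODE M21, GRCm38, plus strand, own bases at chr3:83014835-83014849 for Fgg-201 and chr3:83014308-83014343 for Fgg-202).
Fgg-201: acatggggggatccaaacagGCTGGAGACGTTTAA
Fgg-202: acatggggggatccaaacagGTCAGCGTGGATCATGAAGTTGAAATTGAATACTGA
The coding part held by one form alone is thus 15 bases in Fgg-201 and 36 bases in Fgg-202.

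Fga also has a short and a long form, which differ at the carboxyl end of the alpha chain. The long form in humans is the alpha-E chain, which carries an added globular domain. Fga-201, the short form, led in both libraries with 57.9% of Fga abundance in replicate 1 and 73.7% in replicate 2. Fga-202, the long form, had 74.5 TPM in replicate 1 and 37.4 TPM in replicate 2. The difference between the libraries in Fga thus lay in the long form, since Fga-201 had 102 TPM in replicate 1 and 105 TPM in replicate 2. The last 20 shared coding bases (lower case) and the bases that follow (capitals) are given below, all 14 for Fga-201 and the first 60 of 710 for Fga-202, which stand at chr3:83031980-83031993 and chr3:83032701-83032760 on the plus strand.
Fga-201: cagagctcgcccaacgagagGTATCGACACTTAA
Fga-202: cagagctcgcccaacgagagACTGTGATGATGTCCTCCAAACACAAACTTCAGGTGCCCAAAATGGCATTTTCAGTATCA
Fgb has a single annotated transcript in the tables.

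**Figure D2:**
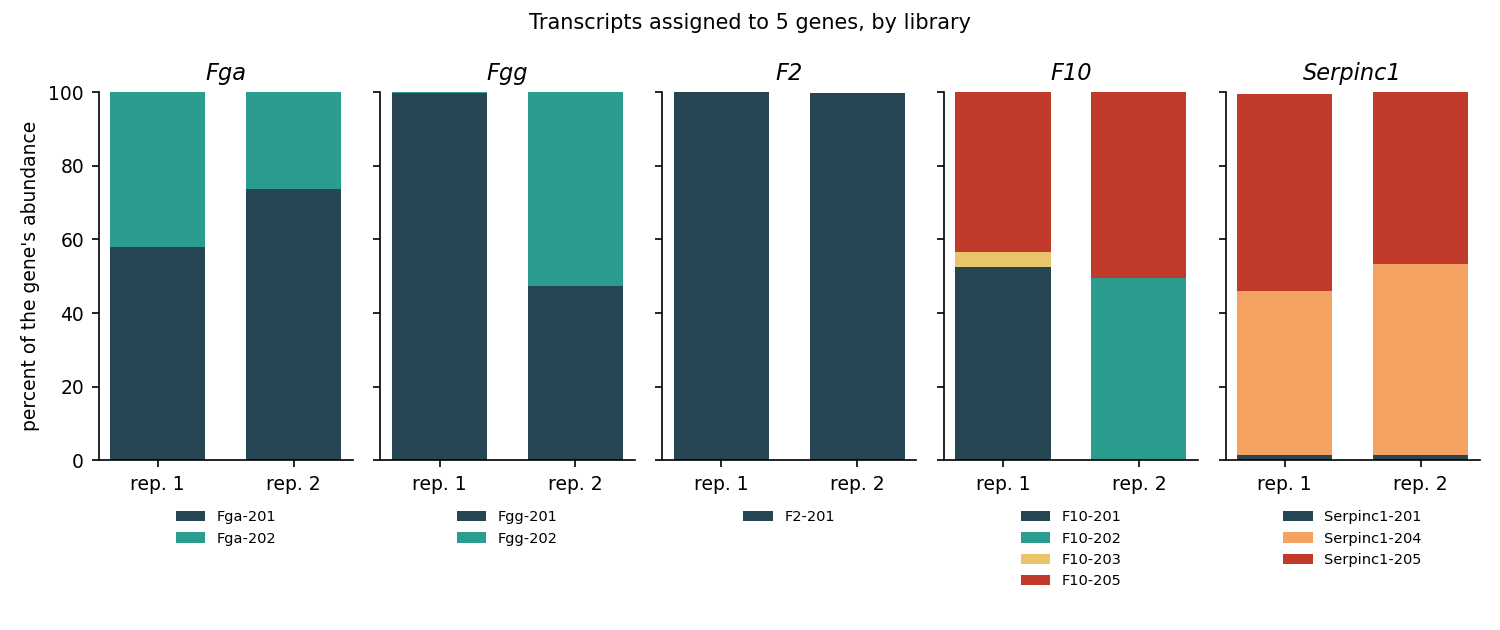
Percent of each gene's abundance assigned to its transcripts in replicate 1 and replicate 2, for the 5 genes with more than 1 annotated transcript and a read, leaving out transcripts under 1% in both libraries. Fgg-202 fills 0.38% of the bar in replicate 1 and 52.6% in replicate 2, and F2 is filled by F2-201 in both.

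Across the 10 genes, 25 transcripts were listed, and 5 genes had 2 or more transcripts and reads in both libraries. The leading transcript, the one of highest TPM, was the same in both libraries for 2 of these 5 (Fga and F2) and differed for 3 (Fgg, F10 and Serpinc1). Of all genes that reached mean TPM 10 and had 2 or more transcripts, 62.5% had the same leading transcript.

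The vitamin K dependent zymogen genes ranged from no read to 216 TPM. F2 encodes prothrombin (chr2:91625320-91636414, minus strand), and it differed most between the libraries among the 7 genes detected in both. F2 had 16.7 TPM (931 reads) in replicate 1 and 216 TPM (12004 reads) in replicate 2, a level 13 times as high in replicate 2. Its principal transcript F2-201 took 99.9% of F2 abundance in replicate 1 and 99.8% in replicate 2, so the same form was counted in both. F2 ranked 5365 of all Ensembl genes in replicate 1 and 705 in replicate 2. Beside it, 5 of 7 mesenchymal, 7 of 8 endothelial and 4 of 5 heart muscle markers had a higher TPM in replicate 2, and Pdgfrb, Des, Lyve1 and Actc1 a higher one in replicate 1. Of 10 hepatoblast markers, 7 were higher in replicate 1 and 3 in replicate 2. Also higher in replicate 1 were 5 of 7 erythroid, 5 of 8 macrophage and 5 of 8 megakaryocyte and platelet markers. These counts include small differences, such as that of the endothelial marker Kdr, with 7.35 TPM in replicate 1 and 8.39 in replicate 2. The part of these markers in the higher F2, Serpinc1, Plg and Fgg of replicate 2 was not tested.

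F10 encodes factor X, which is activated to the protease that cuts prothrombin. F10 (chr8:13037308-13056676, plus strand) had 57.0 TPM (2619 reads) in replicate 1 and 54.9 TPM (3019 reads) in replicate 2. This was the smallest difference in deposited TPM among the 7 genes detected in both. F10 had more reads in replicate 2, but its length was set at 1971 bases there and at 1653 bases in replicate 1. Its transcripts were less alike, since F10-201 took 52.5% in replicate 1 and 0% in replicate 2, while F10-202 took 0% and 49.5%. F10-205 took 43.4% in replicate 1 and 50.5% in replicate 2. The last exon of F10-201 is 608 bases long and that of F10-202 is 1384 bases long, with the same coding end in both.

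F7 encodes factor VII, the protease that tissue factor binds to start clotting. The gene lies 1498 bases before F10 on the same strand, at chr8:13026034-13035809. F7 had 0 reads in replicate 1 and 53 reads in replicate 2, or 1.03 TPM. The exact Poisson 95% interval of the 53 reads is 39.7 to 69.3, and for the 0 reads of replicate 1 a floor of 3 reads, or 0.0577 TPM, was used. From the lower limit of the 53 reads and that floor, F7 took a part of the reads 13.5-fold higher in replicate 2. The same exact interval for 0 reads reaches 3.69 reads, above the floor, so this fold is not a strict lower bound. Intervals and floors cover the counting of reads only, since PCR copies are not independent molecules. Next to the pair, Proz, the gene of the anticoagulant protein Z, had 30.5 TPM in replicate 1 and 41.3 TPM in replicate 2. Pcid2, a gene of messenger RNA export, had 25.3 TPM in replicate 1 and 0.12 TPM in replicate 2. Mcf2l, an exchange factor gene, had 0.05 and 0.01 TPM. Reading along the chromosome, the low F7 thus stood between Mcf2l, at or under 0.05 TPM, and F10, above 50 TPM in both libraries.

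F9 encodes factor IX, the protein missing in haemophilia B, and F5 encodes factor V, the cofactor of factor Xa. F9 (chrX:59999464-60030759) and F5 (chr1:164151838-164220277), both on the plus strand, had 0 reads in replicate 1 and 0 in replicate 2. A count of 0 allows up to 0.0385 TPM of F9 in replicate 1 and 0.0388 in replicate 2. For the longer F5 the limit is 0.0138 TPM in replicate 1 and 0.0139 in replicate 2. Neither gene was detectable at this depth. The F7 and F9 windows are shown because, of the 9 promoters, they hold the letters of an HNF4 motif, CAAAGGTCA. None of the motifs searched was in the window of F5, also at 0, nor in those of F10 and Fgg, both above 50 TPM in each library. The F7 and F9 windows cover chr8:13025784-13026033 and chrX:59999214-59999463, RefSeq GRCm38.p6. They run 5′ to 3′ on the plus strand, with capitals for HNF4 and C/EBP letters.
F7: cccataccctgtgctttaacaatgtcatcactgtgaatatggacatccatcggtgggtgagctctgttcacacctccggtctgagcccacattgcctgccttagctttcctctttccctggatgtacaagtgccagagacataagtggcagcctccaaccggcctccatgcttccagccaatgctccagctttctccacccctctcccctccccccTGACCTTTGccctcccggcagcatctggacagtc
F9: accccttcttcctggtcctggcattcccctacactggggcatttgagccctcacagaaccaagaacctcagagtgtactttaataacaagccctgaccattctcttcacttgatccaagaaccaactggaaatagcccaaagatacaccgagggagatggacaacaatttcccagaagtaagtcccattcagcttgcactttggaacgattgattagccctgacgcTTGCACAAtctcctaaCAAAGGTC
In F9 the last letter of the HNF4 match is the start base itself, which follows the printed window. The HNF4 letters were in 2 of 9 genes, F7 and F9, and in 0.478% of all promoters.

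Serpinc1, which encodes antithrombin (chr1:160978585-161005863, plus strand), had the highest TPM of the 10 genes in both libraries as deposited. Serpinc1 had 192 TPM (4881 reads) in replicate 1 and 395 TPM (9864 reads) in replicate 2. The 3 Ensembl genes nearest to it in log2(TPM + 1) over the 2 libraries were Pgls (186 and 414 TPM, distance 0.08), Lars2 (190 and 371, distance 0.09) and Arhgdib (189 and 357, distance 0.15). Zbtb37 overlaps Serpinc1 on the other strand over 2942 bases and had no read, and the unclassified antisense gene Gm37072 had 0 TPM in replicate 1 and 8.16 in replicate 2.

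The high TPM of Serpinc1 came with short transcripts. Serpinc1-205, 1044 bases long and annotated without its end, took 53.6% of the abundance in replicate 1 and 46.7% in replicate 2. Serpinc1-204, 742 bases long and annotated as a target of nonsense-mediated decay without its start, took 44.6% and 51.7%. The principal transcript Serpinc1-201 is 4970 bases long, of which the last exon holds 3577, and it took 1.34% and 1.57%. Counting all reads of the gene against the length of Serpinc1-201 gave 33.9 TPM in replicate 1 and 68.9 TPM in replicate 2, and the deposited mean was 5.70 times as high as the mean on that scale. With the exons of Serpinc1-201 taken only up to the end of Serpinc1-204, 1570 bases in all, the values were 112 TPM in replicate 1 and 228 TPM in replicate 2. The level of Serpinc1 relative to the other genes therefore depended on the transcript model.

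On the lengths of the principal transcripts, the order by level in replicate 1 was Fga, Fgg, Fgb, Plg, F10, Serpinc1 and F2. In replicate 2 it was F2, Fgg, Fga, Plg, Fgb, Serpinc1 and F10. F10 had 36.9 TPM in replicate 1 and 42.7 TPM in replicate 2 on this scale. Fga had 156 TPM in replicate 1 and 121 TPM in replicate 2. The other genes kept their deposited values to within 2%. Of these, Fgb and Plg have 1 annotated transcript each and F2-201 took nearly all of F2, so their values could hardly move.

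**Figure D3:**
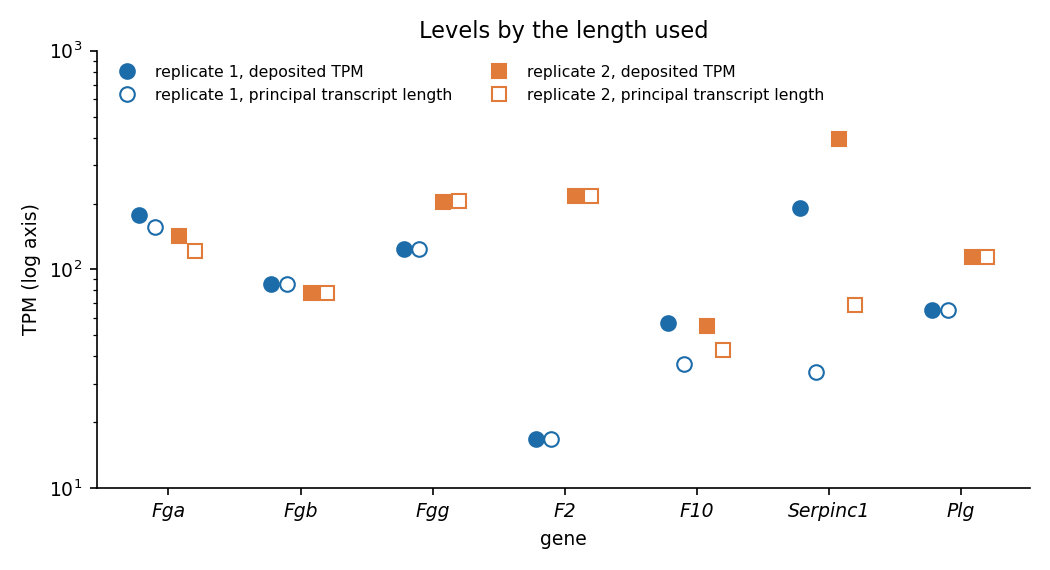
TPM (log axis) of the 7 genes detected in both libraries, as deposited (filled) and recomputed with the length of the principal transcript (open), in replicate 1 (circles) and replicate 2 (squares). Serpinc1 moves to 33.9 in replicate 1 and 68.9 in replicate 2, and Fgb, Fgg, F2 and Plg hardly move.

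Plg encodes plasminogen (chr17:12378608-12419385, plus strand), the zymogen of the protease that removes fibrin. Plg had 64.9 TPM (5091 reads) in replicate 1 and 114 TPM (8906 reads) in replicate 2, from its 1 annotated transcript. Slc22a3 overlaps Plg on the other strand over 426 bases and had no read. Plg stood with F2, Fgg and Serpinc1 among the genes higher in replicate 2.

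Differences between the libraries were put on 1 scale as the log2 ratio of TPM + 1, replicate 1 over replicate 2, centred on the median of the 6801 genes that reached mean TPM 10. The ratio was 0.34 for Fga, 0.16 for Fgb, 0.08 for F10 (-0.19 from CPM and -0.20 with size factors), -0.67 for Fgg, -0.78 for Plg, -1.01 for Serpinc1 and -3.59 for F2. Of these 7 genes, 2 passed a 2-fold difference, against 51.1% of all 6801 genes. Both, F2 and Serpinc1, were higher in replicate 2, where the share of all genes was 25.2%, and none was higher in replicate 1, where it was 25.8%. Serpinc1 passed only just, and at -0.62 it did not pass when the ratios were centred on the spike-ins. That centring put 37.6% of all genes past 2-fold on the side of replicate 2, against 49.4% with the median. The median absolute ratio was 0.67 over the 7 genes and 1.03 over all 6801. Genes of a like level also differed less, with a median of 0.73 over 1905 genes of mean TPM 50 to 200. Of these, 37.4% passed 2-fold, and 1 of the 6 coagulation genes in that range did. A ratio as large in size as that of F2 was seen in 73 of the 1905 genes, or 3.83%.

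**Figure D4:**
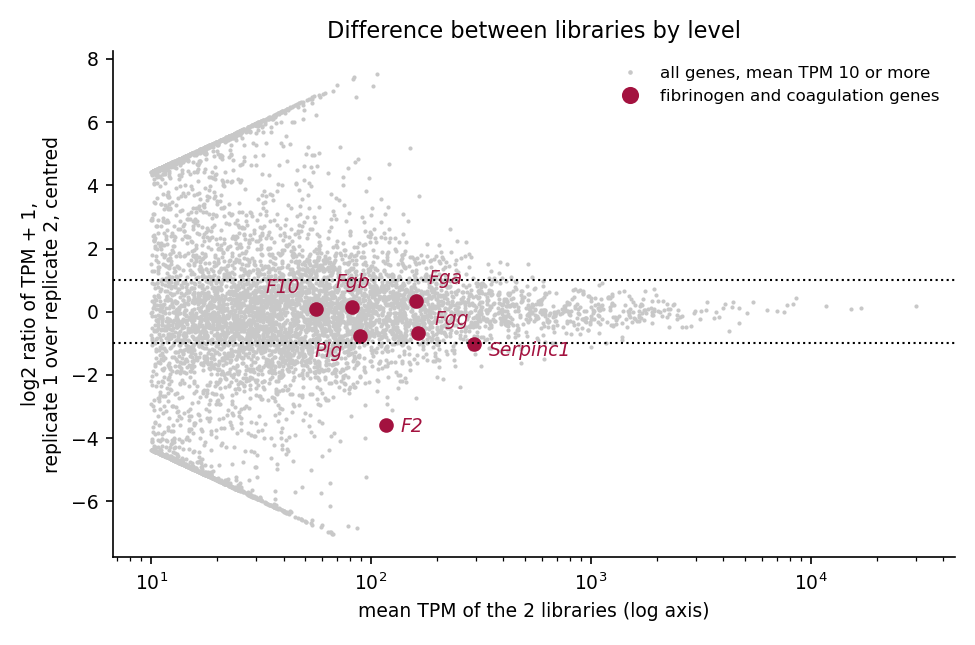
Centred log2 ratio of TPM + 1, replicate 1 over replicate 2, by mean TPM (log axis) for all genes that reached mean TPM 10 (grey) and the 7 fibrinogen and coagulation genes among them (red), with dotted lines at 2-fold. F2 at -3.59 lies far below the other 6, which lie between -1.01 and 0.34.

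The 10 genes were then set against other secreted liver products. Their summed TPM was 14.7% of that of Afp in replicate 1 and 29.97% in replicate 2. The fibrinogen genes alone reached 64.5% of the TPM of Alb, the albumin gene, in replicate 1 and 68.8% in replicate 2. They made up 54.0% of the TPM of the 10 genes in replicate 1 and 35.1% in replicate 2. Of 13 apolipoprotein and lipoprotein assembly genes, 8 were detected in both libraries, with 0.593% and 0.577% of TPM. Of 22 plasma protease inhibitor genes, 14 were detected in both, with 0.329% and 0.308% of TPM. Among genes of mean TPM 10 or more, the 2-fold difference was passed by 1 of 8 apolipoprotein genes and by 5 of 15 inhibitor genes. The share of all genes at that mean was 51.1%.

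A list of 35 other genes of clotting and clot removal held 34 that were analysed, and 16 of them were detected in both libraries, 5 in replicate 1 only and 13 in neither. Klkb1 was not analysed here. Of 18 that reached mean TPM 10, 5 were at least 2-fold higher in replicate 1 and 5 in replicate 2. Of all genes at that mean, 25.8% were so in replicate 1 and 25.2% in replicate 2, a like share. All 5 genes of vitamin K use and factor secretion were detected in both libraries. Ggcx, the carboxylase that modifies the vitamin K dependent zymogens, had 35.1 TPM in replicate 1 and 23.3 TPM in replicate 2. Vkorc1, the reductase that recycles vitamin K and is blocked by warfarin, had the highest mean of them, with 239 TPM in replicate 1 and 75.7 TPM in replicate 2. Its paralogue Vkorc1l1 had 32.1 and 38.5 TPM. Lman1 and Mcfd2 form the cargo receptor of factors V and VIII, and they had 25.1 and 82.9 TPM in replicate 1 and 79.3 and 91.4 TPM in replicate 2. Both were thus read where F5 and F8 had no read.

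Of 9 other clotting factor genes, 3 were detected in both libraries. Kng1, the gene of kininogen, led with 116 TPM in replicate 1 and 141 TPM in replicate 2, though reads may be shared with its near copy Kng2. F12, factor XII of the contact pathway, had 70.0 and 87.2 TPM, and Vwf, the von Willebrand factor gene of endothelium and megakaryocytes, had 22.4 and 53.3 TPM. F3, the tissue factor gene, F8 and F13b had no read in either library. F13a1, the fibrin cross-linking enzyme's A subunit, had 9.28 TPM in replicate 1 and no reads in replicate 2. Of the contact pathway, F12 and Kng1 were thus above F10 in both libraries, while F11, the factor XI gene, had 0.69 TPM in replicate 1 and 0 in replicate 2.

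Anticoagulant genes other than Serpinc1 were detected in both libraries in 5 of 9 cases. Serpind1, heparin cofactor II, led with 85.1 TPM in replicate 1 and 73.2 TPM in replicate 2. Proc, which encodes protein C, had 4.82 TPM in replicate 1 and 37.2 TPM in replicate 2, and Serpina10, an inhibitor that works with protein Z, had 4.11 and 46 TPM. Pros1, the protein S gene, went the other way with 36.6 TPM in replicate 1 and 1.01 TPM in replicate 2. Tfpi, the inhibitor of the tissue factor pathway, had 26.6 TPM in replicate 1 and no read in replicate 2. The centred log2 ratio of Pros1, replicate 1 over replicate 2, was 4.25, larger in size than that of F2 and opposite in sign.

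Of 8 other fibrinolysis genes, 2 were detected in both libraries. Serpinf2, the plasmin inhibitor, led with 212 TPM in replicate 1 and 193 TPM in replicate 2, above Plg in both. Cpb2, the carboxypeptidase that slows clot removal, had 72.6 TPM in replicate 1 and 32.7 TPM in replicate 2. The plasminogen activator genes were low in replicate 2, with Plat at 20.5 TPM in replicate 1 and 0.80 in replicate 2 and Plau at 0 and 0.24. Of 3 fibrinogen-related genes 1 was detected in both libraries, Fn1, the fibronectin gene, with 48.7 TPM in replicate 1 and 228 TPM in replicate 2.

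**Figure D5:**
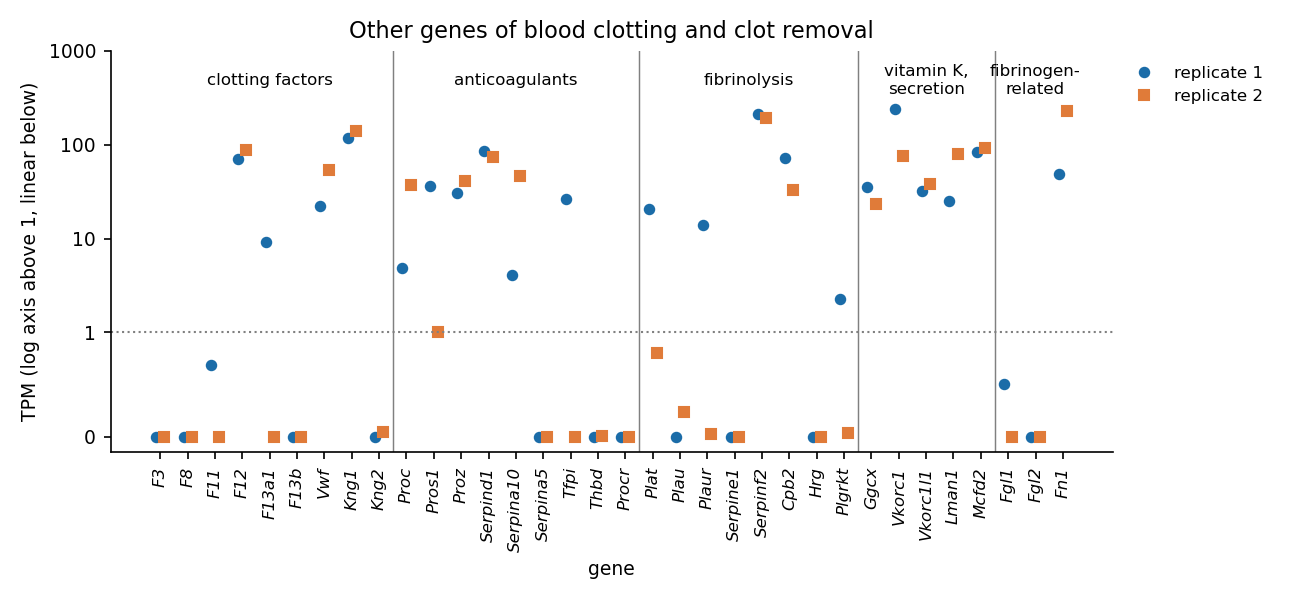
TPM of 34 other genes of clotting and clot removal in replicate 1 (circles) and replicate 2 (squares), in 5 groups, on an axis that is logarithmic above 1 and linear below it, with a dotted line at TPM 1. All 5 genes of vitamin K use and secretion lie above the line in both libraries, and 8 of the 34 have no read in either.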

How the data were processed

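The members and gene lists were chosen with earlier results of these data known. Per the labels, RNA above a size limit was extracted with Ambion mirVana, spike-in RNAs were added, and the assembly was mm10. The aligner and quantifier were not given in the sources used here. Deposited gene and transcript tables hold expected counts (estimated reads), TPM, posterior mean TPM, and a percent of each gene's abundance per transcript, as the authors made them, per the file headers. Of 69691 gene rows, 43346 were Ensembl genes, 97 spike-ins and 26248 rows with numeric identifiers. Symbols and coordinates came from GENCODE M21 by identifier (42462 matched). The tables use release M4. A pair of Serpinc1 sequences is not reported here. Detection meant a TPM of at least 1. The log2 ratio had a pseudocount of 1 and was centred on its median over genes that reached mean TPM 10. Sizes past 2-fold were counted without a test. The rule was tried on simulated libraries whose only noise was the counting of reads. That trial does not show how the rule works on libraries of 1 cell-equivalent. Named genes were all members, detected list genes with the highest of each list, neighbours by position, and the 3 genes nearest in level to the highest member. Alternatives concerned thresholds, scaling, pseudocount, length and each library left out. For a gene without a read a floor of 3 reads was used, which covers the counting of reads only. Spike-ins were 5.83% of TPM for replicate 1 and 7.68% for replicate 2. The labels name separate biological replicates. Python 3.11.15, pandas 2.3.3, numpy 2.4.6 and scipy 1.17.1 were used.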

Additional observations from a re-analysis of the deposited data

How the results depend on the processing

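No paired analysis was possible because the libraries form 1 group. Members detected in both libraries numbered 7, and also 7 with a TPM of at least 0.1 or 5, with more than 3 reads and with posterior mean TPM. With a library left out, the members' summed share is that of the other library, 0.0717% or 0.120%, which is no separate check. Taken as a percent of reads over Ensembl genes instead of TPM over all rows it was 0.161%. Members past 2-fold numbered 1 instead of 2 when ratios were centred on 38 spike-ins. Centring on the spike-ins moved all ratios by 0.39 on the log2 scale, and 37.6% of all calls were then higher in replicate 2, against 49.4% before. Of 82 recomputed single-gene values that kept both libraries, 71 moved by no more than the spread between the libraries and 11 moved more. The 71 include values of F5 and F9 that stayed at 0. They also include values of F2, whose spread was wider than its mean (116 ± 141), so this count is a weak check. The F10 log2 ratio, which was under 2-fold, turned sign in 2 of these, to -0.19 from CPM of the expected counts and to -0.20 with median-of-ratios size factors. The same leading transcript was shared by 3 of 5 genes when only protein-coding transcripts were counted, against 68.6% of 3020 genes under that setting. The principal transcript length, chosen after seeing the data, changed the Fga to Fgb ratio to 1.68 ± 0.191. With 2 libraries of 1 cell-equivalent each, differences between the libraries carry no replicate check.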
